A study of Mus musculus with 16 samples.

Results

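The genes described here are 34 members of branched-chain amino acid and ketone catabolism, chosen by name as a pathway list and followed through all 16 adipose tissue libraries. They cover amino acid transporters, the aminotransferases, the branched-chain ketoacid dehydrogenase (BCKDH) complex and its regulators, the leucine, valine and isoleucine branches, propionyl-CoA disposal, ketone body use and some aldehyde dehydrogenases. The expression table holds 1 row per RefSeq transcript, and 133 of its 130343 transcripts belonged to the members. Of these, 65 had any counts and 41, from 30 genes, were above 1 CPM (counts scaled to library size) in at least 3 libraries and were tested among 13288 transcripts.

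Bulk poly-A RNA was sequenced from inguinal subcutaneous adipose tissue (SAT) and mesenteric visceral adipose tissue (VAT) of 8 wild-type (WT) male C57BL/6J mice. The 4 lean mice received a normal rodent laboratory diet and the 4 obese mice a high-fat diet labelled as 42% of kcal from saturated fat with 0.2% cholesterol, from 10 weeks of age and for 12-14 months. SAT of both sides was combined into 1 sample per mouse, each mouse also gave its VAT, and the replicate number names the mouse, which makes 4 groups of 4 libraries. Library totals ran from 1256082 counts in VAT of lean mouse 1 and 2247737 in VAT of obese mouse 1, the shallowest pair, to 16614407 in SAT of obese mouse 3.

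Leucine, valine and isoleucine are taken up by exchange transporters, stripped of their amino group by the aminotransferases BCAT1 and BCAT2, and committed to oxidation by the mitochondrial BCKDH complex. The carbon skeletons then run through separate enzyme branches to acetyl-CoA, acetoacetate and propionyl-CoA, the last of which enters the citric acid cycle as succinyl-CoA. White adipose tissue is a recognized site of this pathway, and in differentiated adipocytes its products feed the mitochondrial acetyl-CoA pool and lipid synthesis, while OXCT1 lets mitochondria burn ketone bodies.

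A group of these enzymes, from the BCKDH complex down to ketone use, was lower in obese than in lean mice in both tissues, and 1 transporter was higher in obese VAT. In SAT, 9 of the 41 member transcripts (from 8 genes) were called lower in obese mice, at an adjusted p below 0.05, where 4.85% of all transcripts tested were, and 0 were called higher, where 6.2% were. In VAT, 13 of 41 (from 12 genes) were lower, where 4.09% of all transcripts were, and 1 was higher, where 6.82% were. The tests were edgeR quasi-likelihood tests with Benjamini-Hochberg adjustment over all 13288 transcripts. The 0 in SAT was also 0 at an unadjusted p below 0.05 and by both DESeq2 and limma voom. The 6 genes Bckdhb, Ivd, Mccc1, Mccc2, Hibch and Oxct1 were called lower in both SAT and VAT. The SAT count dropped to 4 without lean mouse 2 and to 5 without lean mouse 3, obese mouse 2 or obese mouse 3, and the VAT count to 8 without lean mouse 3 and 7 without obese mouse 4.

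The log2 fold changes of obese against lean mice were below 0 for 33 of the 41 transcripts in SAT and 34 of 41 in VAT, with medians of -0.34 and -0.50, while the medians over all transcripts tested were 0.01 and 0.02. In SAT, 11 member transcripts had all 4 obese libraries below all 4 lean ones, against 7.63% of all transcripts, and 0 had them all above, against 9.62%. In VAT, 12 lay fully below, against 5% of all transcripts, and 0 fully above, against 8.32%. Most changes were modest. Bcat2 in SAT was the 1 called member beyond a log2 fold change of 1.5, the limit the study used. The heat map of all tested genes shows the enzymes of the middle steps below their lean levels in most obese libraries of both tissues.

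**Figure D1:**
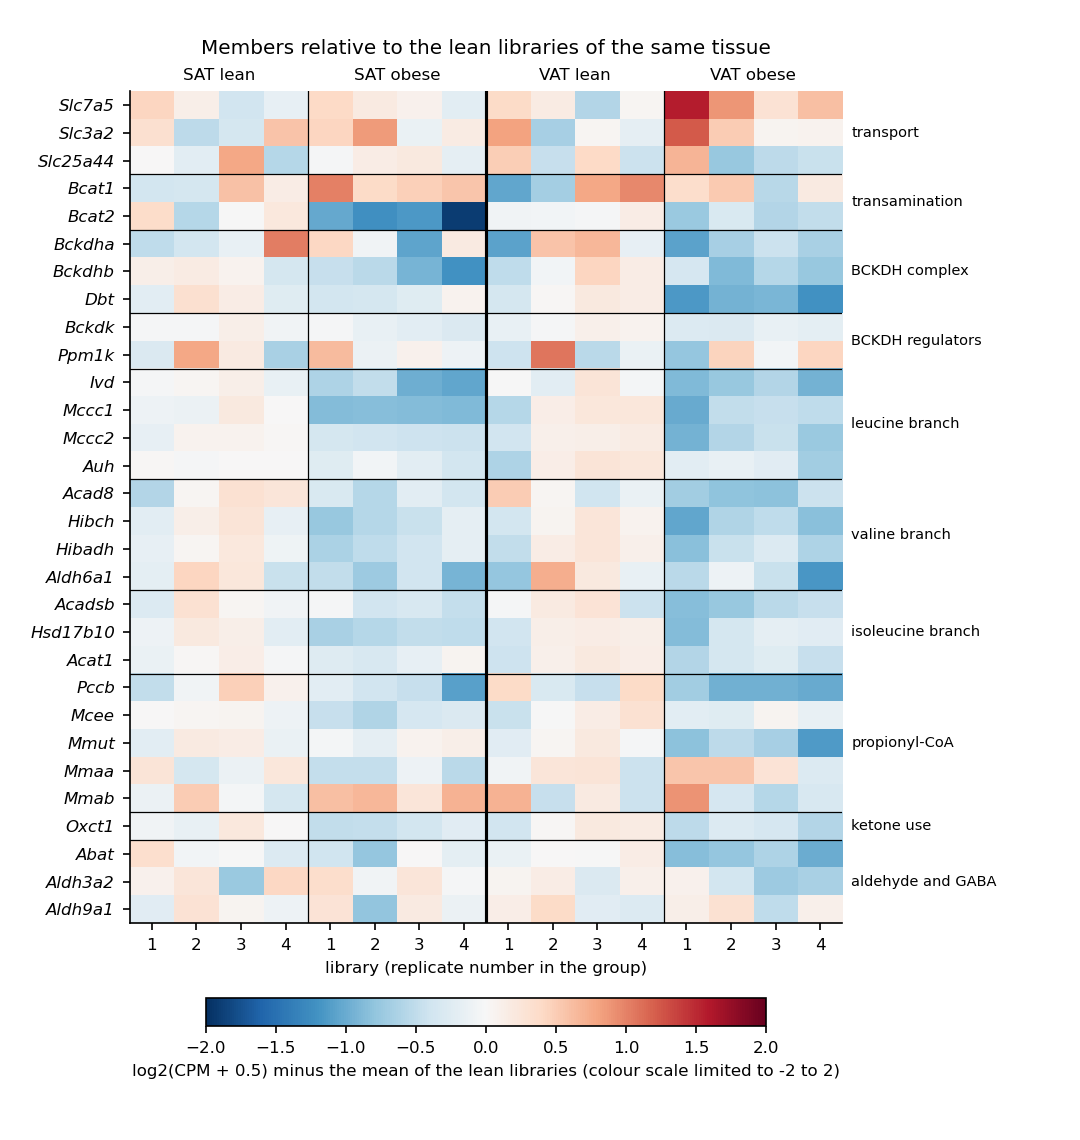
Levels of the 30 tested members in each of the 16 libraries (columns, by group and replicate number), as log2(CPM + 0.5) minus the mean of the 4 lean libraries of the same tissue, with blue below and red above the lean mean. Rows are ordered by pathway step, and the obese columns are mostly blue for Ivd, Mccc1, Mccc2, Hibch and Oxct1 in both tissues, for Bcat2 in SAT and for Dbt, Mmut and Abat in VAT, while Slc7a5 is red in VAT and Mmab in SAT.

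Cell type markers moved with diet as well. The summed CPM of 9 adipocyte markers were 41499 to 58218 in lean and 37508 to 52429 in obese SAT and 21946 to 34809.5 in lean and 15629 to 26439 in obese VAT. Of their 17 tested transcripts, 1 (Cfd, adipsin) was lower in obese SAT and 8 were lower in obese VAT, with medians of -0.19 and -0.66, and Adipoq (adiponectin) was at -0.19 (SE 0.16, adjusted p = 0.505) in SAT and -0.58 (SE 0.16, adjusted p = 0.0191) in VAT. The sums of 7 macrophage markers were 1241 to 1711 in lean and 1940.1 to 2875 in obese SAT, and 2159 to 2879 in lean and 4425 to 6822 in obese VAT, and 4 of their 6 tested transcripts were higher in obese SAT and 5 of 6 in obese VAT. Brown or beige adipocyte markers summed to 34.1 to 96.7 CPM in lean and 16.1 to 25.1 CPM in obese SAT, without overlap, and to 37.4 to 81.6 and 30.5 to 47.4 CPM in lean and obese VAT. Of their 4 tested transcripts, 2 (Dio2 and Cidea) were lower and 1 (Ucp1) higher in obese SAT, and Dio2 was lower and Ucp1 higher in obese VAT. Of 8 transcripts of lipid-associated macrophage genes, 7 were higher and 1 lower in obese VAT, against 3 and 1 in obese SAT. The lower one was Lpl, lipoprotein lipase, which adipocytes also express strongly, at log2 fold changes of -0.40 (SE 0.12, adjusted p = 0.0310) in SAT and -0.59 (SE 0.12, adjusted p = 0.00170) in VAT. B cell and T cell markers were higher in obese VAT in 2 of 4 and 2 of 3 transcripts, and none was called in SAT. In these bulk samples, fewer adipocytes and less enzyme RNA per adipocyte cannot be told apart, and the part of these markers in the member results was not tested. Skeletal muscle markers summed to at most 1.96 CPM in any library, but the endothelial marker Pecam1 was at 0 in all 16 libraries as well, so that low values in this table do not show that a cell type was missing. Intestinal epithelial markers summed to 18.9 to 69.6 CPM in lean and 19.0 to 25.9 CPM in obese VAT, which overlapped, with 2 of 7 transcripts lower in obese VAT. Exocrine pancreas markers summed to 71.1 to 144 CPM in lean and 163 to 208 CPM in obese SAT, and to 41.2 to 60.7 and 83.5 to 91.3 CPM in lean and obese VAT, nearly all of it Cela1, which was higher in both, while Cpa1 and Pnlip averaged under 2 CPM in every group. Endothelial markers summed to 162 to 298 CPM in lean and 230 to 336 CPM in obese SAT, which overlapped. In lean and obese VAT they summed to 191 to 256 and 211 to 308 CPM, which overlapped as well. Of their 5 tested transcripts, 1 (Vwf) was higher in obese SAT, at 1.64 (SE 0.24, adjusted p = 0.000130), and 0 were lower. In obese VAT 0 were called. The part of these lists was not tested.

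At the cell membrane, Slc7a5 (LAT1, the light chain that carries large neutral amino acids) was higher in obese VAT. Its CPM, scaled by trimmed mean of M values (TMM) as are all values here, was 14.7, 12.5, 7.27 and 11.4 in VAT of lean mice 1 to 4 and 33.9, 20.9, 13.7 and 17.1 in VAT of obese mice 1 to 4. Obese mouse 1, from a shallow library, was the highest, and obese mouse 3 lay within the lean range, so the groups overlapped. The log2 fold change was 0.90 (SE 0.26, adjusted p = 0.0263). The call was lost without lean mouse 2, 3 or 4 and without obese mouse 1 or 2 (largest adjusted p = 0.125), and the VAT libraries alone did not give it. In SAT, Slc7a5 was 11.7 ± 2.96 CPM (SD, n = 4 as for every ± here) in lean and 12.5 ± 2.204 in obese mice, a log2 fold change of 0.09 (SE 0.25, adjusted p = 0.872). Its partner Slc3a2, the 4F2 heavy chain, was not called with its main transcript, with log2 fold changes of 0.32 (SE 0.30, adjusted p = 0.554) in SAT and 0.54 (SE 0.32, adjusted p = 0.327) in VAT. Slc25a44, the mitochondrial carrier for branched-chain amino acids, was counted 65 times over the 16 libraries. Its log2 fold changes were -0.34 (SE 0.74, adjusted p = 0.833) in SAT and -0.56 (SE 0.69, adjusted p = 0.691) in VAT.

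The aminotransferases, which move the amino group onto an oxo acid acceptor, gave 1 call with diet, in SAT. Bcat2, the mitochondrial form (chr7:45219577-45239152, GRCm39), was at 7.41, 3.65, 5.61 and 6.57 CPM in the 4 lean SAT libraries and at 2.53, 2.11, 2.27 and 1.15 CPM in the obese ones. Every obese SAT library was below every lean one, and the log2 fold change of -1.53 (SE 0.26, adjusted p = 0.000417) meant that it fell by 65.3%, and it was called in 18 of 18 alternative analyses. In VAT, Bcat2 was at 6.37, 6.43, 6.62 and 7.48 CPM in lean and 3.81, 5.34, 4.30 and 4.61 CPM in obese mice. These groups did not overlap either, but the log2 fold change of -0.55 (SE 0.25, adjusted p = 0.178) did not pass, and the difference between the tissues' responses was 0.93 (SE 0.38, adjusted p = 0.233). Bcat1, the cytosolic form, had means of 8.36 ± 2.91 CPM in lean and 12.6 ± 2.67 CPM in obese SAT with a log2 fold change of 0.60 (SE 0.32, adjusted p = 0.260), and was at 3.86 ± 2.72 and 3.66 ± 1.19 CPM in lean and obese VAT. The Bcat2 values rest on 1 predicted noncoding transcript of the gene with 729 counts over 16 libraries. Reads shared by several transcripts of a gene appear to be lost from this table, so that low counts of Bcat2, Bckdha, Ppm1k and similar genes do not show low expression.

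In the BCKDH complex, the committed step, Bckdhb was lower in obese mice in both tissues and Dbt was lower in VAT. Bckdhb (chr9:83807130-84011081) encodes the beta subunit of the decarboxylase, and its main transcript was at 25.4, 26.2, 24.7 and 18.2 CPM in lean and 16.9, 15.9, 12.0 and 9.85 CPM in obese SAT. The SAT groups did not overlap, and the log2 fold change was -0.80 (SE 0.20, adjusted p = 0.0103). In VAT it was at 13.4, 18.6, 26.1 and 21.3 CPM in lean and 15.2, 10.3, 12.9 and 11.3 CPM in obese mice. Lean mouse 1 lay within the obese range there, the log2 fold change was -0.75 (SE 0.21, adjusted p = 0.0190), and the call was lost without lean mouse 3 or obese mouse 2 or 4 (largest adjusted p = 0.111). A second Bckdhb transcript (NM_001305935 in RefSeq) was at 8.20 ± 1.69 CPM in lean and 7.82 ± 0.874 CPM in obese SAT, with log2 fold changes of -0.06 (SE 0.20, adjusted p = 0.888) in SAT and -0.58 (SE 0.20, adjusted p = 0.0715) in VAT, neither of them called. Another, low one (XM_017313114) was not called either, at -0.57 (SE 0.63, adjusted p = 0.629) and 0.89 (SE 0.72, adjusted p = 0.511). With counts summed over the gene, Bckdhb was called in both tissues, at log2 fold changes of -0.58 (adjusted p = 0.0146) and -0.69 (adjusted p = 0.00536).

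Dbt (chr3:116306686-116343633), the E2 core that passes the acyl group on to coenzyme A, gave the smallest adjusted p of the members in VAT. It was at 23.6, 30.8, 34.6 and 33.5 CPM in lean and 13.3, 15.5, 15.8 and 12.8 CPM in obese VAT. All obese VAT libraries were well below all lean ones, a log2 fold change of -1.11 (SE 0.17, adjusted p = 0.000145) so that it fell by 53.7%, and it was called in 18 of 18 alternatives. In SAT, Dbt was at 21.9, 32.1, 28.2 and 21.4 CPM in lean and 19.7, 19.96, 21.6 and 26.9 CPM in obese mice. The SAT groups overlapped, and the log2 fold change was -0.24 (SE 0.16, adjusted p = 0.397). The alpha subunit Bckdha had 94 counts of its tested transcript over 16 libraries, and its log2 fold change in VAT of -2.08 (SE 0.80, adjusted p = 0.107) did not pass. The regulators gave no call. Bckdk, the kinase that switches the complex off, was at 143 ± 8.46 CPM in lean and 128 ± 9.82 CPM in obese SAT, and at 150.2 ± 11.3 and 128 ± 6.18 CPM in VAT, with log2 fold changes of -0.17 (SE 0.10, adjusted p = 0.329) and -0.23 (SE 0.10, adjusted p = 0.165). Ppm1k, the phosphatase that switches it on, had 169 counts of its tested transcript over 16 libraries and log2 fold changes of 0.09 (SE 0.58, adjusted p = 0.949) in SAT and -0.16 (SE 0.53, adjusted p = 0.905) in VAT.

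The leucine branch had 3 of its 4 genes lower in both tissues. Ivd, isovaleryl-CoA dehydrogenase, makes the first oxidation step after BCKDH, Mccc1 and Mccc2 are the 2 subunits of 3-methylcrotonyl-CoA carboxylase, and Auh is the hydratase that follows. Ivd (chr2:118692141-118714335) was at 69.5, 72.8, 76.4 and 63.8 CPM in lean and 45.8, 50.1, 35.6 and 34.2 CPM in obese SAT. No obese SAT library reached the lowest lean one. In VAT it was at 69.5, 60.2, 83.4 and 67.9 CPM in lean and 37.7, 41.3, 46.5 and 36.2 CPM in obese mice. Again no library crossed over, and the log2 fold changes of -0.77 (SE 0.14, adjusted p = 0.000876) in SAT and -0.79 (SE 0.14, adjusted p = 0.000773) in VAT were nearly equal, so that it fell by 41.5% and fell by 42.3%. Both Ivd calls stood in 18 of 18 alternatives.

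Mccc1 (chr3:36010879-36054881), the biotin-carrying subunit, was at 29.8, 29.4, 36.7 and 32.0 CPM in lean SAT and between 17.1 and 17.4 CPM in all 4 obese SAT libraries. The obese libraries were close to each other and far below the lean range, with a log2 fold change of -0.89 (SE 0.16, adjusted p = 0.000592). In VAT, Mccc1 was at 11.5, 18.9, 20.2 and 20.2 CPM in lean and 8.39, 12.2, 12.4 and 12.0 CPM in obese mice. Mouse 1 was the lowest of both VAT groups, which puts lean mouse 1 inside the obese range, and the log2 fold change was -0.67 (SE 0.17, adjusted p = 0.00933). A second transcript of Mccc1, also a predicted noncoding one, gave -0.57 (SE 0.18, adjusted p = 0.0481) in SAT and -0.69 (SE 0.20, adjusted p = 0.0233) in VAT. Mccc2 (chr13:100069907-100152178), the other subunit, is counted from 1 coding transcript and was at 276, 325, 327 and 316 CPM in lean and 242, 239, 232 and 229.5 CPM in obese SAT. In VAT it was at 221, 308, 312 and 321 CPM in lean and 148, 192, 211 and 171 CPM in obese mice. Neither tissue's groups overlapped. The log2 fold change of Mccc2 was -0.40 (SE 0.12, adjusted p = 0.0396) in SAT. That call was lost without lean mouse 2, 3 or 4 or obese mouse 2, 3 or 4. It was also lost with no filter on low counts (adjusted p = 0.194). In VAT the log2 fold change was -0.69 (SE 0.12, adjusted p = 0.000753), called in 18 of 18 alternatives. Auh was at 28.8 ± 0.436 CPM in lean and 24.7 ± 2.31 CPM in obese SAT, and at 17.3 ± 4.39 and 13.5 ± 2.23 CPM in lean and obese VAT. It did not pass in either tissue, with log2 fold changes of -0.23 (SE 0.16, adjusted p = 0.408) in SAT and -0.43 (SE 0.17, adjusted p = 0.119) in VAT, but 4 of 18 alternatives gave the VAT call, among them DESeq2 (adjusted p = 0.0414) and the fit without lean mouse 1 (adjusted p = 0.0216).

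Upstream sequences are shown for the members called lower in both tissues whose start site is single in the RefSeq promoter table (GRCm38.p6) and lies at most 60 bases inside any GENCODE transcript. Each runs from 250 to 31 bases before the start, 5′ to 3′ on the gene's strand, at chr3:36000709-36000928 (reverse) for Mccc1, chr13:100015670-100015889 (reverse) for Mccc2 and chr15:4026178-4026397 (forward) for Oxct1, with CCAAT and GGGCGG on either strand in capitals.
Mccc1: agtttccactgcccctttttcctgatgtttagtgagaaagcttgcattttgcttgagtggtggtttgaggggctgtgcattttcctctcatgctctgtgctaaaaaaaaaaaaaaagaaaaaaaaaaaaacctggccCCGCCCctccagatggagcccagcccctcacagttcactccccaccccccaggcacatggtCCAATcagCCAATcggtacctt
Mccc2: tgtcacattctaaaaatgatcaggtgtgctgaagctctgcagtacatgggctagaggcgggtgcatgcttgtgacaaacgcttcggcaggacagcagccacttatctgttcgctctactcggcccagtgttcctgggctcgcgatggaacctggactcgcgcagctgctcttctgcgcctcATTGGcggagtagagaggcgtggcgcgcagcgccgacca
Oxct1: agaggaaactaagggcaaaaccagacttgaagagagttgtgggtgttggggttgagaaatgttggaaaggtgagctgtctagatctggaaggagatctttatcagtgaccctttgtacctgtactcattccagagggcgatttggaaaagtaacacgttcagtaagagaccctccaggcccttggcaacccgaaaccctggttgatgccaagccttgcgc
Mccc1 holds 2 CCAAT boxes and 1 GGGCGG on the other strand, Mccc2 holds 1 CCAAT on the other strand, and Oxct1 holds neither. Over the same 220-base window, CCAAT was found in 15 of the 27 members with an entry in the table and in 31.0% of all 32851 promoters, and GGGCGG in 14 of 27 and 28.5%. TATAAA was found in 2 of 27 and 9.95%. A member was counted if any of its promoters held the motif, while the percentages are per promoter. The shares of members and of promoters are therefore not in the same unit, which favours the members. The motifs were chosen after these promoters had been read, and a match is a description of the letters, not a bound site.

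**Figure D2:**
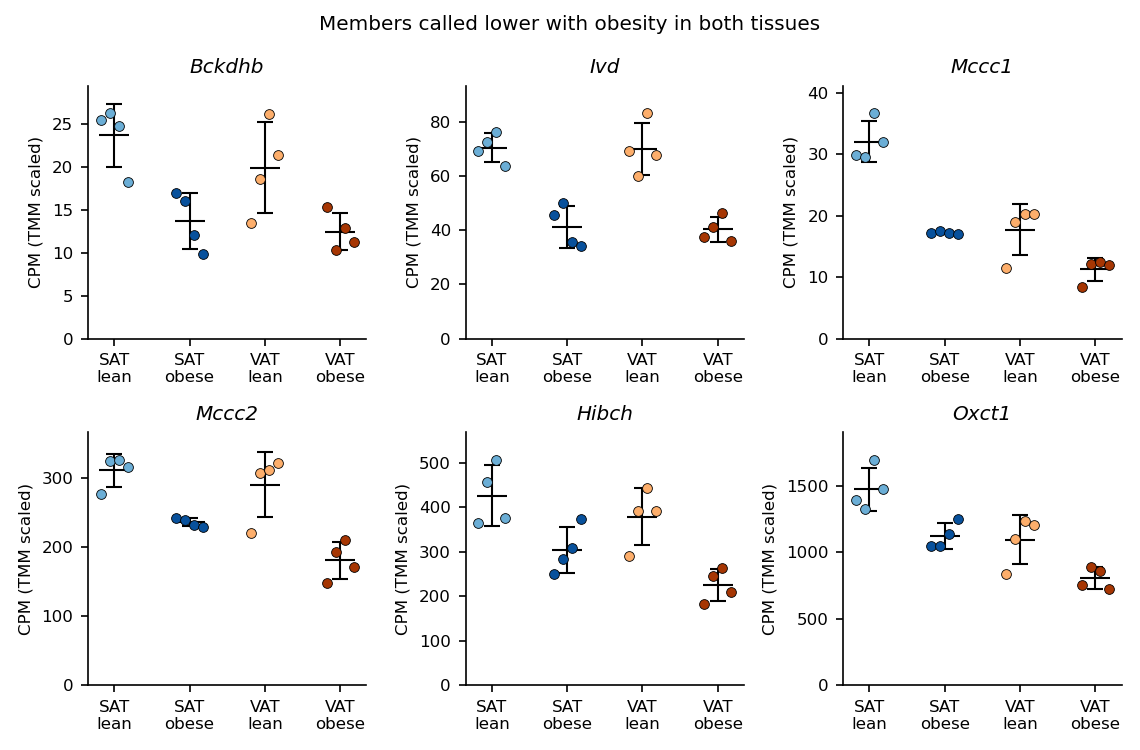
TMM-scaled CPM of the 6 members called lower with obesity in both tissues, 1 point per library, with horizontal marks at the mean and bars of ± 1 SD (n = 4 per group). All obese points lie below all lean points for Ivd and Mccc2 in both tissues, and lean VAT holds 1 low point, mouse 1, in 5 of the panels.

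In the valine branch all 4 genes had log2 fold changes below 0 in both tissues, and Hibch and Hibadh gave calls. Hibch (chr1:52884079-52963346), the hydrolase that frees 3-hydroxyisobutyrate from its CoA ester, was at 365, 457, 507 and 374 CPM in lean and 250.1, 283, 308 and 372 CPM in obese SAT. Obese mouse 4 fell inside the lean range. The log2 fold change was -0.49 (SE 0.15, adjusted p = 0.0386), and the call was lost without lean mouse 2 or 3 or obese mouse 1, 2 or 3 (largest adjusted p = 0.134). In VAT, Hibch was at 289, 391, 444 and 391 CPM in lean and 182, 245, 264 and 209 CPM in obese mice. These groups were apart, with a log2 fold change of -0.75 (SE 0.15, adjusted p = 0.00205) that was called in 18 of 18 alternatives. Hibadh (chr6:52430355-52617400), the dehydrogenase of the next step, was at 654, 759.6, 854 and 692 CPM in lean and 474, 517, 563 and 649.9 CPM in obese SAT. These groups did not overlap, but the log2 fold change of -0.43 (SE 0.15, adjusted p = 0.0688) missed the threshold, which it passed in 6 of 18 alternatives.

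In VAT, Hibadh was at 479, 744, 799 and 725 CPM in lean and 378, 497, 560.3 and 442 CPM in obese mice. Lean mouse 1 lay inside the obese range, and the log2 fold change of -0.55 (SE 0.15, adjusted p = 0.0179) was lost without lean mouse 2 or 3 or obese mouse 4 (largest adjusted p = 0.0741). The difference between the tissues was -0.11 (SE 0.16, adjusted p = 0.806). Acad8 was at 5.07 ± 1.38 CPM in lean and 3.74 ± 0.435 CPM in obese SAT, and at 5.41 ± 1.62 and 3.09 ± 0.459 CPM in lean and obese VAT. This isobutyryl-CoA dehydrogenase had log2 fold changes of -0.41 (SE 0.25, adjusted p = 0.313) in SAT and -0.70 (SE 0.26, adjusted p = 0.0958) in VAT. Aldh6a1 was at 13.3 ± 3.74 CPM in lean and 8.26 ± 1.47 CPM in obese SAT, and at 6.24 ± 2.83 and 3.89 ± 1.25 CPM in lean and obese VAT. This methylmalonate semialdehyde dehydrogenase had log2 fold changes of -0.70 (SE 0.26, adjusted p = 0.0904) in SAT and -0.81 (SE 0.30, adjusted p = 0.0866) in VAT. Neither gene passed, but with the replicate number as a block Aldh6a1 was called at an adjusted p of 0.0447 in SAT and 0.0286 in VAT. Aldh6a1 shares 4382 exon bases with Bbof1 on the other strand. The library kit was directional, but the strand setting of the counting is not given in the sources used here, so reads of such neighbours could not be told apart if strand was not used. Hibch, with 2013 bases shared with a gene on the other strand, and Acat1, at 2031 shared with Npat, are in the same position. So is Bckdha, at 2386 shared with B3gnt8. Other members, among them Auh, Bcat2, Oxct1, Mmut and Mccc1, share fewer bases with genes on the other strand.

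The isoleucine branch gave 1 call in each tissue. Hsd17b10 (chrX:150784841-150787438), the 2-methyl-3-hydroxybutyryl-CoA dehydrogenase of mitochondria, was at 178, 219, 207 and 166 CPM in lean and 121, 129, 135 and 134 CPM in obese SAT. The groups were apart, and the log2 fold change was -0.57 (SE 0.14, adjusted p = 0.0113), which lost its call without lean mouse 2 (adjusted p = 0.0520). In VAT, Hsd17b10 was at 127, 179, 184 and 180.0 CPM in lean and 90.4, 130.2, 146 and 142 CPM in obese mice. Lean mouse 1 lay below all obese libraries but that of mouse 1, and the log2 fold change of -0.40 (SE 0.14, adjusted p = 0.0770) did not pass. It was called in 7 of 18 alternatives, including the replicate number as a block (adjusted p = 0.0272), DESeq2 and limma voom. Acat1 (chr9:53450461-53521731), the thiolase that ends isoleucine breakdown and also splits acetoacetyl-CoA from ketone bodies, was at 495, 712, 755 and 723 CPM in lean and 439.9, 521, 558 and 482 CPM in obese VAT. Lean mouse 1 lay again among the obese libraries. The log2 fold change of -0.43 (SE 0.13, adjusted p = 0.0324) was lost without lean mouse 2, 3 or 4 or obese mouse 1, 2 or 4 (largest adjusted p = 0.123). In SAT, Acat1 was at 789.9, 880.2, 953 and 858 CPM in lean and 724, 699, 779 and 907 CPM in obese mice, which overlapped, with a log2 fold change of -0.16 (SE 0.13, adjusted p = 0.460). Acadsb was at 4.74 ± 0.880 CPM in lean and 3.74 ± 0.598 CPM in obese SAT, and at 5.30 ± 1.17 and 3.16 ± 0.468 CPM in lean and obese VAT. Acadsb, the dehydrogenase of the branch, had log2 fold changes of -0.33 (SE 0.23, adjusted p = 0.400) in SAT and -0.73 (SE 0.24, adjusted p = 0.0573) in VAT, where no obese library reached a lean one and 6 of 18 alternatives gave the call.

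Propionyl-CoA, the end product shared by valine and isoleucine, is carboxylated by PCCA and PCCB, epimerized by MCEE and turned into succinyl-CoA by the cobalamin-dependent mutase MMUT. Pccb and Mmut were lower in obese VAT, and in SAT Mcee lay just outside the threshold. Mmut (chr17:41245567-41274873) was at 178, 214, 239 and 204 CPM in lean and 118, 144, 131 and 94.6 CPM in obese VAT. The groups were clearly apart, with a log2 fold change of -0.78 (SE 0.14, adjusted p = 0.000486), so that it fell by 41.8%, and the call stood in 18 of 18 alternatives. In SAT, Mmut was at 157, 206, 202 and 166 CPM in lean and 177, 159, 191 and 198 CPM in obese mice. These ranges were nearly the same, and the log2 fold change was -0.01 (SE 0.13, adjusted p = 0.971). Pccb (chr9:100864085-100916978) was at 10.2, 6.14, 5.45 and 10.1 CPM in lean and 4.57, 3.70, 3.72 and 3.58 CPM in obese VAT. All obese libraries lay below the lean ones and close together, and the log2 fold change of -1.0001 (SE 0.28, adjusted p = 0.0222) was lost without lean mouse 4 or obese mouse 2, 3 or 4 (largest adjusted p = 0.104). In SAT, Pccb was at 4.69, 6.45, 9.69 and 7.21 CPM in lean and 5.83, 5.07, 4.82 and 2.92 CPM in obese mice, with overlap and a log2 fold change of -0.59 (SE 0.26, adjusted p = 0.159).

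Mcee was at 43.8 ± 2.04 CPM in lean and 32.7 ± 3.11 CPM in obese SAT, where the groups did not overlap and the log2 fold change of -0.42 (SE 0.14, adjusted p = 0.0518) stood just outside the threshold. It was called in 10 of 18 alternatives, DESeq2 and limma voom among them. In VAT its log2 fold change was -0.18 (SE 0.14, adjusted p = 0.486). The cobalamin genes of this step, Mmaa (the chaperone that loads the cofactor) and Mmab (which makes adenosylcobalamin), had log2 fold changes of -0.51 and 0.55 in SAT and 0.26 and -0.04 in VAT, with adjusted p between 0.246 and 0.965. Mmaa was at 2.16 ± 0.523 CPM in lean and 1.497 ± 0.288 CPM in obese SAT, and at 2.75 ± 0.685 and 3.46 ± 0.975 CPM in lean and obese VAT. Mmab was at 5.72 ± 1.68 CPM in lean and 8.45 ± 1.21 CPM in obese SAT, and at 6.46 ± 2.78 and 6.30 ± 3.70 CPM in lean and obese VAT. Neither was called with diet. Pcca, with 75 counts in all, was not tested.

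Ketone use turned on Oxct1 (chr15:4055638-4184828), the succinyl-CoA transferase that activates acetoacetate outside the liver. Oxct1 was at 1394, 1327, 1698 and 1476 CPM in lean and 1048, 1051, 1138 and 1250.0 CPM in obese SAT, with no overlap. In VAT it was at 833, 1099.5, 1237 and 1205 CPM in lean and 749.9, 891, 856 and 723 CPM in obese mice, where lean mouse 1 lay inside the obese range. The log2 fold changes were -0.39 (SE 0.12, adjusted p = 0.0435) in SAT and -0.44 (SE 0.12, adjusted p = 0.0222) in VAT, so that it fell by 23.9% and fell by 26.4%. The SAT call was lost without lean mouse 2, 3 or 4 or obese mouse 1, 2 or 3 (largest adjusted p = 0.149) and the VAT call without lean mouse 2 or 3 or obese mouse 4 (largest adjusted p = 0.0850). Bdh1, the dehydrogenase that makes acetoacetate from 3-hydroxybutyrate, had 9 counts over the 16 libraries and was not tested.

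Of the aldehyde and GABA enzymes, Abat (chr16:8331233-8439996), the mitochondrial 4-aminobutyrate transaminase that also acts on the valine product 3-aminoisobutyrate, was lower in obese VAT. It was at 18.5, 20.6, 20.2 and 22.6 CPM in lean and 11.1, 11.7, 13.2 and 9.98 CPM in obese VAT. The groups were far apart, and the log2 fold change of -0.84 (SE 0.18, adjusted p = 0.00331) was called in 18 of 18 alternatives. In SAT, Abat was at 32.1, 24.4, 25.2 and 21.0 CPM in lean and 19.1, 14.7, 25.5 and 22.1 CPM in obese mice, which overlapped, with a log2 fold change of -0.34 (SE 0.17, adjusted p = 0.213). The aldehyde dehydrogenases Aldh3a2 and Aldh9a1 gave no call, with log2 fold changes of 0.13 and -0.06 in SAT and -0.54 and -0.01 in VAT. Aldh3a2 was at 3.54 ± 1.23 CPM in lean and 3.75 ± 0.610 CPM in obese SAT, and at 4.33 ± 0.626 and 3.18 ± 0.993 CPM in lean and obese VAT. Aldh9a1 was at 1.65 ± 0.340 CPM in lean and 1.55 ± 0.599 CPM in obese SAT, and at 1.75 ± 0.497 and 1.76 ± 0.4997 CPM in lean and obese VAT. Aldh7a1 (15 counts) and Acss1, a mitochondrial acetyl-CoA synthetase (3 counts), were not tested.

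The tissues were then compared in their response to diet, with the mouse as a block. Mmut was the 1 member transcript, of 41, whose response differed, where 1.29% of all transcripts tested had a lower and 0.88% a higher response in VAT than in SAT. Its log2 fold changes of -0.01 in SAT and -0.78 in VAT gave a difference of -0.78 (SE 0.17, adjusted p = 0.0166). VAT was above SAT in 4 of 4 lean mice and below it in 4 of 4 obese mice. The call was lost without lean mouse 3 or obese mouse 4 (largest adjusted p = 0.0754), and at an adjusted p of 0.0501 when the mouse was not a block. Dbt had a difference of -0.86 (SE 0.23, adjusted p = 0.0542), and was called by DESeq2 and limma voom. No member had a called difference in the other direction, by edgeR, DESeq2 or limma voom, with 3 at an unadjusted p below 0.05, namely a second, low transcript of Aldh3a2 at 1.37 (SE 0.63, adjusted p = 0.312), Bcat2 at 0.93 (SE 0.38, adjusted p = 0.233) and Slc7a5 at 0.74 (SE 0.26, adjusted p = 0.153). The main Aldh3a2 transcript had a difference of -0.64 (SE 0.39, adjusted p = 0.488). For the genes lower in both tissues the differences ran from -0.28 in Mccc2 to 0.24 in Mccc1, with Ivd at 0.00 (SE 0.19). In the plot of VAT against SAT responses, most members lie below 0 on both axes, with Mmut and Dbt below the line of equal response and Bcat2 above it.

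**Figure D3:**
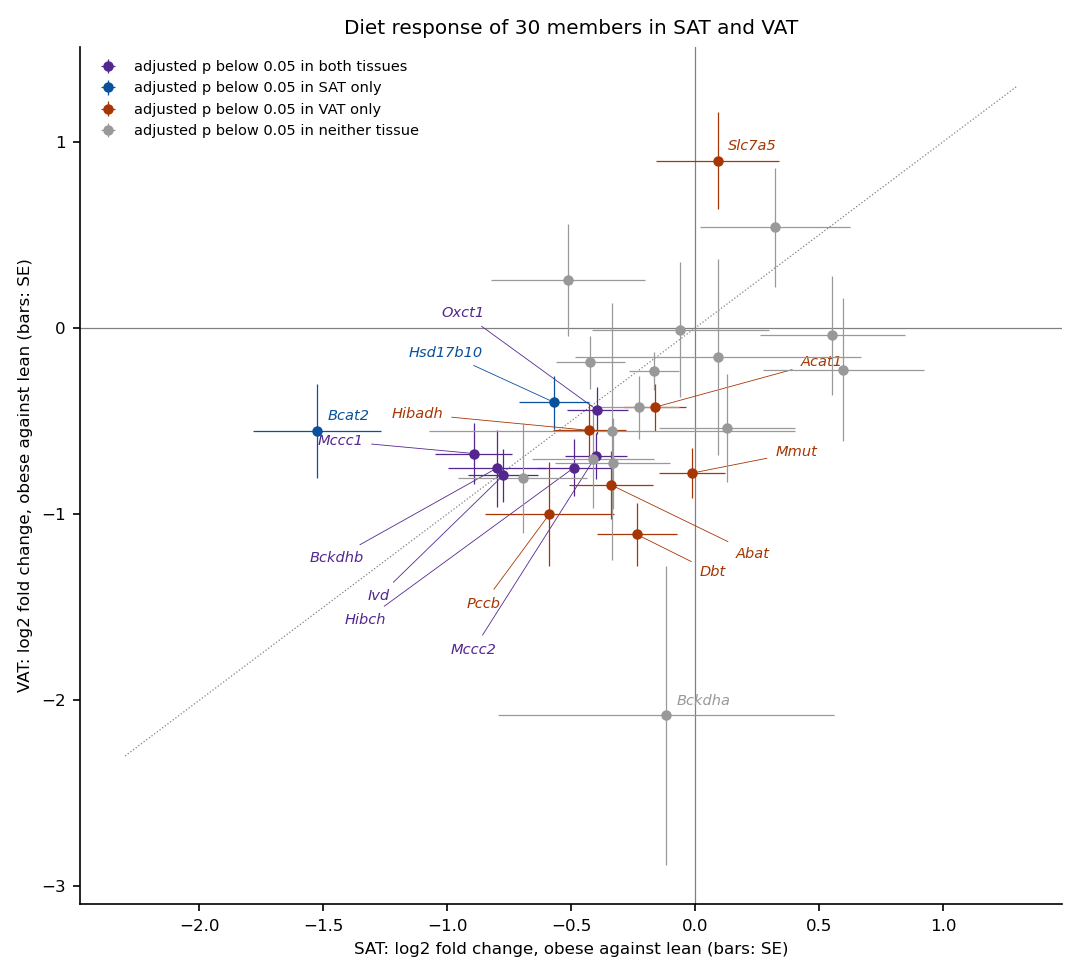
Log2 fold change of obese against lean mice for the 30 tested members in SAT (horizontal) and VAT (vertical), with bars of ± 1 SE and a dotted line of equal response. Members called in both tissues cluster between -0.89 and -0.39 in SAT, Bcat2 lies at -1.53 in SAT and Slc7a5 at 0.90 in VAT.

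Between depots of the same mouse, 6 members were lower in VAT than in SAT under both diets. In lean mice 6 of 41 transcripts were lower in VAT, where 6.84% of all transcripts were, and 0 were higher, where 8% were, with 0 also at an unadjusted p below 0.05 and by DESeq2 and limma voom. In obese mice 13 of 41 (11 genes) were lower, where 13.5% of all transcripts were, and 4 were higher, where 15.9% were. Bcat1 was at 6.09, 6.17, 12.3 and 8.90 CPM in SAT and 1.27, 1.79, 5.77 and 6.602 CPM in VAT of lean mice 1 to 4. In obese mice 1 to 4 it was at 16.56, 10.7, 11.4 and 12.0 CPM in SAT and 4.19, 4.77, 2.01 and 3.67 CPM in VAT. VAT was lower in 8 of 8 mice, with log2 fold changes of -1.17 (SE 0.27, adjusted p = 0.00466) in lean and -1.79 (SE 0.26, adjusted p = 1.25e-05) in obese mice, the lean call being lost without lean mouse 2 (adjusted p = 0.0558). Aldh6a1 was also lower in VAT of all mice, at -1.06 (SE 0.22, adjusted p = 0.00179) in lean and -1.10 (SE 0.23, adjusted p = 0.000760) in obese mice. Acat1, Oxct1, Auh and Mccc1 were likewise lower in VAT under both diets, with log2 fold changes from -0.83 to -0.39 in lean and from -0.88 to -0.48 in obese mice. The Acat1 call in lean mice was lost without lean mouse 1 or 3 (largest adjusted p = 0.0821). Adipocyte marker transcripts were lower in VAT as well, 4 of 17 in lean and 12 of 17 in obese mice, and mesothelial markers summed to at most 1.402 CPM in SAT but 244 to 595 in lean and 301 to 369 in obese VAT. Macrophage marker transcripts were higher in VAT, 4 of 6 in lean and 6 of 6 in obese mice. B cell markers were higher in 3 of 4 and 4 of 4, and T cell markers in 1 of 3 and 3 of 3. The part of all these markers in the depot differences was not tested.

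In obese mice, Abat, Mmut, Dbt, Hibch and Mccc2 were lower in VAT as well, at log2 fold changes from -0.81 (Abat) to -0.39 (Mccc2), and the Dbt and Hibch calls were lost without obese mouse 4 (adjusted p = 0.0913 and 0.0834). Higher in VAT of obese mice were Bcat2, at 1.23 (SE 0.28, adjusted p = 0.00177) and in 4 of 4 mice, Mmaa, at 1.14 (SE 0.33, adjusted p = 0.0123) and in 4 of 4 mice, Slc7a5, at 0.70 (SE 0.18, adjusted p = 0.00399) and in 4 of 4 mice, and a second Slc3a2 transcript, at 1.01 (SE 0.25, adjusted p = 0.00380). Mmaa lost its call without obese mouse 1 or 2 (largest adjusted p = 0.0798).

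**Figure D4:**
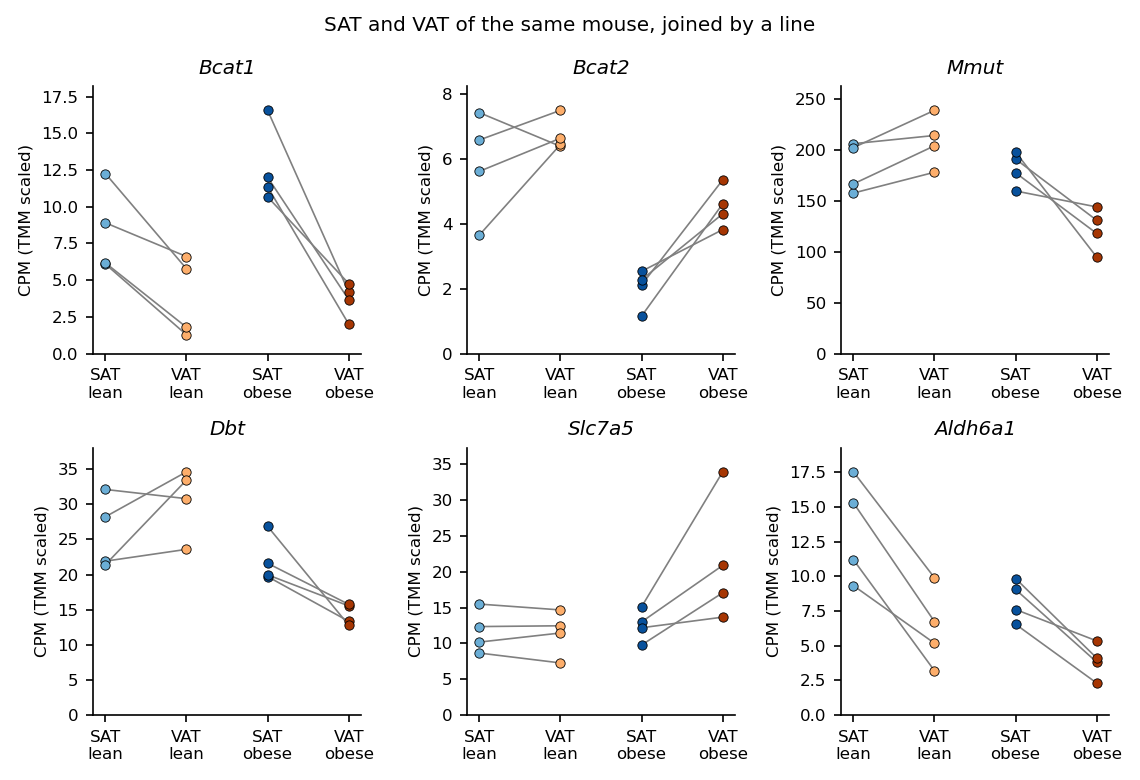
TMM-scaled CPM of 6 members in SAT and VAT of the 4 lean and 4 obese mice, with a line joining both tissues of 1 mouse. Bcat1 and Aldh6a1 fall from SAT to VAT in all 8 mice, Mmut rises in the 4 lean and falls in the 4 obese mice, and Bcat2 and Slc7a5 rise in the 4 obese mice.

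Around the members, 48 related genes of neighbouring steps were followed, of which 34 (40 transcripts) were tested. In obese SAT 3 transcripts of the 40 were higher, where 6.2% of all transcripts tested were, and 5 were lower, where 4.85% were. In obese VAT 1 was higher, where 6.82% were, and 7 were lower, where 4.09% were. Among those higher in SAT were Acss2, the cytosolic acetyl-CoA synthetase, at 207 ± 34.2 CPM in lean and 765 ± 263 CPM in obese mice with a log2 fold change of 1.88 (SE 0.18, adjusted p = 4.83e-07) and the leucine sensor Sesn2 at 0.90 (SE 0.17, adjusted p = 0.000973). Among those lower in SAT were the alanine transaminase Gpt2 at -1.36 (SE 0.27, adjusted p = 0.00210) and the transcription factor Klf15, a known activator of branched-chain amino acid genes, at -1.61 (SE 0.40, adjusted p = 0.0106). In VAT, the aspartate transaminase Got2 was higher at 0.39 (SE 0.13, adjusted p = 0.0492). Lower in VAT by the smallest adjusted p were the peroxisomal enzyme Ehhadh at -1.37 (SE 0.24, adjusted p = 0.000618), acetoacetyl-CoA synthetase Aacs at -0.93 (SE 0.22, adjusted p = 0.00683) and the mitochondrial short-chain acyl-CoA synthetase Acss3 at -0.83 (SE 0.20, adjusted p = 0.00738). Of the 40 related transcripts, 5 had a lower response in VAT than in SAT, where 1.29% of all transcripts did, and 0 a higher one, where 0.88% did. Among the 5 was Acss2 with a difference of -1.57 (SE 0.17, adjusted p = 8.27e-06).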

How the data were processed

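Poly-A RNA of SAT and VAT from 8 mice was sequenced with a directional kit. Per the submitters' processing notes the tools were FastQC 0.11.9, Trim Galore 0.6.6, HISAT2 2.2.0, SAMtools 1.11, bedtools 2.29.2, HTSeq 0.13.5 and edgeR 3.34.0, with the GRCm39 genome. The strand setting of the counting is not given in the sources used here. The deposited table gives a raw read count and a CPM value per RefSeq transcript and library. The deposited CPM equals the count divided by the library total and was used for no test. Of the 130343 transcripts, 43411 had counts, and 82.0% were paired with a symbol through a RefSeq table.

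Transcripts above 1 CPM in at least 3 of 16 libraries were tested on the counts with edgeR 4.0.16 (R 4.3.3, quasi-likelihood, TMM), called at a Benjamini-Hochberg adjusted p below 0.05 over all transcripts. Diet was tested in a fit of the 4 groups, and depots and the difference between tissues with the mouse as a block, since the study took both tissues from the same mice. Deviations of both tissues of 1 mouse correlated at -0.02 to 0.23 (8 pairs). Same-numbered lean and obese libraries correlated above 0.1 in 4 of 4 VAT pairs and 0 of 4 SAT pairs, so a fit with that number as a block is given where it adds a call. The diet p-values rest on the spread between mice within groups, estimated over all 16 libraries with both tissues of a mouse taken as independent. Those for depots and for the difference between tissues rest on the spread of the difference between tissues within mice. With totals of 1256082 to 16614407 counts the low transcripts rest on few reads. DESeq2 1.42.0, limma 3.58.1 voom, RLE size factors, other filters, counts summed per symbol, single tissues, blocks and leaving out each mouse were alternatives.

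A member gene is described by its tested transcript with the highest mean CPM. Values in every library are given for members called with diet or in the difference between tissues, and for Bcat1, which was added after its values were seen. Related genes are named by the 3 smallest adjusted p per tissue and direction, except some that are not reported here. The members, related genes, markers and motifs were chosen with earlier results of these data known.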

Additional observations from a re-analysis of the deposited data

Results flagged for a closer look

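With 4 libraries a group, 120 groups of tested members were searched for a library far from the other 3, and 12 were found, where chance gives about 1 in 20. The shallowest libraries gave 8 of them. In VAT of lean mouse 1, Mccc1 was at 11.5 CPM (others 18.9 to 20.2), Mccc2 at 220.5 (308 to 321), Hsd17b10 at 127.5 (179 to 184) and Acat1 at 494.6 (712 to 755). All were low, and all are enzymes of the leucine and isoleucine branches. The same library was also the lowest of its group for Hibch, Hibadh, Oxct1 and Dbt, outside these branches, without being flagged. It was the highest of its group for Acad8, Mmab and Slc7a5, again without being flagged. In VAT of obese mouse 1, Mccc1 was low at 8.39 CPM (12.0 to 12.4), while Slc25a44 at 1.52 (0.247 to 0.426), Pccb at 4.57 (3.58 to 3.72) and Mmab at 11.8 (3.91 to 4.78) were high. The others were Bckdha in SAT of lean mouse 4 at 1.91 CPM (0.329 to 0.570), Ppm1k in VAT of lean mouse 2 at 2.68 (0.534 to 0.880), Auh in VAT of obese mouse 4 at 10.2 (14.3 to 15.1) and Mmaa in SAT of obese mouse 3 at 1.93 (1.31 to 1.38).

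Mmut responded to diet differently in VAT and SAT, with a log2 difference of -0.78 (adjusted p = 0.0166 by the interaction term in edgeR). It fell in VAT, and its SAT log2 fold change was -0.01.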

How the results depend on the processing

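No called member changed direction under any alternative run. The calls lower in SAT of Bcat2, Bckdhb, Ivd and Mccc1, and in VAT of Abat, Dbt, Hibch, Ivd, Mccc1, Mccc2 and Mmut, were made in 18 of 18 alternatives. Leaving out each mouse gave 4 to 11 member transcripts lower and 0 higher in SAT (4 without lean mouse 2, 5 without lean mouse 3, obese mouse 2 or obese mouse 3). In VAT it gave 7 to 17 lower (8 without lean mouse 3, 7 without obese mouse 4) and 0 to 1 higher. For the difference between tissues it gave 0 to 2 lower and 0 higher, for depots in lean mice 5 to 6 lower and 0 to 1 higher, and in obese mice 9 to 14 lower and 3 to 4 higher. The transcript higher in VAT became 0 in a fit of the 8 VAT libraries and without the mice of the 2 shallowest libraries, a choice made after seeing the data, which also gave 1 transcript higher in VAT of lean mice than in their SAT and lost the Acat1 call between depots of lean mice (adjusted p = 0.0763). With no filter on low counts, Mccc2 (adjusted p = 0.194) and Oxct1 (0.139) lost their SAT calls. The difference between tissues gave 2 lower, Mmut and Dbt, with RLE size factors, filterByExpr, the newer edgeR setting, DESeq2, limma voom and counts summed per symbol. Where calls were lost with a mouse, fewer libraries entered the fit, and the cause was not tested otherwise.

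Without the mouse as a block the difference between tissues gave 0 lower, and 3 of 21 calls on depots or the difference, counting 1 transcript per gene, were lost, of Mmut (difference, adjusted p = 0.0501), Bcat1 (0.0729) and Acat1 (0.0573, both in lean mice). Lean and obese mice are different animals that share replicate numbers. Deviations of libraries with the same number correlated at 0.11 to 0.40 in VAT, where 4 of 4 pairs were over 0.1, and at -0.08 to 0.06 in SAT, where 0 of 4 were. The libraries numbered 1 are the shallowest of both VAT groups, and the part of depth in this was not tested. With the number as a replicate block the 21 diet calls, again with 1 transcript per gene, stood, and over all 41 member transcripts 12 were lower in SAT and 15 in VAT. The added calls were Aldh6a1 (adjusted p = 0.0447), Hibadh (0.0121) and Mcee (0.0372) in SAT, and Aldh6a1 (0.0286) and Hsd17b10 (0.0272) in VAT. Low counts limit Slc25a44, Bckdha, Ppm1k and the untested Pcca, Bdh1, Aldh7a1 and Acss1, for which no difference was detectable here, and whether depth or the counting of shared reads sets them was not tested.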
